A study of Mus musculus with 7 samples.

Results

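The enzymes of cholesterol synthesis and the genes that sense, absorb, esterify and export sterols were followed in mouse intestinal epithelial cells after deletion of Mob1a and Mob1b. The 30 genes were a list of 19 enzymes of the synthesis pathway, 5 regulators, 3 genes of uptake, esterification and transfer, and 3 efflux transporters. They were found among 13805 measured genes with a symbol, and 24763 features in all, by matching the accession of each probe to a RefSeq gene symbol. All 30 had a probe and all 30 passed the filter on dim probes, with a representing probe well above background on all 7 arrays.

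Total RNA of epithelial cells, released from the proximal intestine with 2 mM EDTA, was hybridised with 1 dye (Cy3) to 7 Agilent arrays. All mice were male, 8 weeks old at injection, backcrossed for over 6 generations to C57BL/6J, carried floxed alleles of both genes (Mob1a f/f; Mob1b f/f) and received tamoxifen at 80 mg/kg per day on 2 days. The 2 control samples carried no Cre; the labels place them 7 days after tamoxifen, whereas the design text speaks of 0 days. The knockout samples also carried Villin-creERT2, a tamoxifen-activated Cre under the Villin promoter, active in intestinal epithelium, and were taken at day 4 (2 samples), day 7 (2 samples) and day 10 (1 sample). Because the controls lacked CreERT2, effects of the active recombinase and of the deletion cannot be told apart. Different mice were used at each time per the design text, and the day 10 sample had no replicate, so its tests borrow the spread of the other groups.

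Levels are given as log2 signal relative to the 75th percentile of all probes of the same array, so that a difference of 1 is a doubling. A difference was called when its adjusted p was under 0.05 in limma, with Benjamini-Hochberg adjustment over all 24763 features. The arrays within a group correlated at 0.977 to 0.988 over features, and the day 10 array correlated at 0.865 to 0.919 with the others. Mob1b was at -0.72 and -0.92 in the controls and between -2.50 and -2.21 on all 5 knockout arrays. Its fall was not called at day 4 (adjusted p = 0.18) and was called at day 7 (0.0133) and day 10 (0.00676). The day 7 call was lost without control replicate 1 or day 7 replicate 1. Mob1a, a dim probe, was at -0.25 (day 4), 0.27 (day 7) and 1.62 (day 10) relative to control. The Mob1a rise at day 10 was called (adjusted p = 0.0104), and was not called with normexp (0.107). It is not known whether either probe lies in the deleted exons. All arrays lay on 1 slide; the control and day 4 arrays filled the first slide row and the day 7 and day 10 arrays the second row. Slide row and group therefore cannot be told apart in day 7 or day 10 against control and in day 7 against day 4, whereas day 4 against control and day 10 against day 7 are comparisons within a row.

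Cells make cholesterol from acetyl-CoA through mevalonate, isoprenoid units and squalene, which is oxidised, closed into a sterol ring and trimmed to cholesterol. When membrane sterol is low, the escort protein SCAP carries the transcription factors SREBP1 and SREBP2 from the endoplasmic reticulum to the Golgi, where they are cut and released to activate genes of lipid synthesis; when sterol is high, the INSIG proteins retain SCAP in the endoplasmic reticulum. Oxidised sterols also activate the LXR receptors, which raise transcription of efflux transporters. In the small intestine, absorptive cells take up dietary cholesterol from the lumen, esterify it, return part of it to the lumen and pass the rest to lipoproteins.

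The stretch of 250 bases before the transcription start was searched on both strands for 4 short motifs tied to this control, in the 25 of 30 genes that the RefSeq promoter table (GRCm38.p6) holds. Sqle, Soat2, Fdps, Fdft1 and Stard4 had no entry. A classical sterol regulatory element form bound by SREBPs, TCACNCCAC, was in 1 of the 25, Hmgcs1, or 4% against 1.22% of all 27025 genes with a promoter entry. The E-box form TCACGTGA was in 0 of the 25, against 0.907% of all genes. The CCAAT box bound by NF-Y, a partner of SREBPs, was in 21 of the 25, or 84% against 37.5% of all genes. The GC box GGGCGG, bound by Sp1, was in 20 of the 25, or 80% against 35.4% of all genes, or against 59.2% of the genes measured here that have an entry. Among these measured genes the shares of the other forms were 1.27% (TCACNCCAC), 1.62% (TCACGTGA) and 40.2% (CCAAT). No match of 1 of these motifs overlapped a match of another in the 25 genes. A gene with several starts counted as matching when any of its starts did.

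The promoter of Abca1 is shown because it was the called gene with the largest difference at day 7, and those of Hmgcs1, Srebf2, Insig1 and Insig2 were chosen after the values were seen, as the gene with the sterol regulatory element form and as 3 regulators described later. All are from RefSeq on GRCm38.p6, written 5′ to 3′ on the strand of the gene and ending at the base before its start, with the sterol regulatory element form and the CCAAT box (read as CCAAT or, on the other strand, ATTGG) in capitals. Their places are chr4:53159896-53160145 on the minus strand (Abca1), chr13:119690101-119690350 on the plus strand (Hmgcs1), chr15:82147019-82147268 on the plus strand (Srebf2), chr5:28071162-28071411 on the plus strand (Insig1) and chr1:121332590-121332839 on the minus strand (Insig2, the first of 3 starts).
Abca1: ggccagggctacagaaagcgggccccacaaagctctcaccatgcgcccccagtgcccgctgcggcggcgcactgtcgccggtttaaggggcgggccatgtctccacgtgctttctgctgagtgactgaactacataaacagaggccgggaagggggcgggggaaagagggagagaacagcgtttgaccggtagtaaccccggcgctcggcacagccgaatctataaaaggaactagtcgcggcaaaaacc
Hmgcs1: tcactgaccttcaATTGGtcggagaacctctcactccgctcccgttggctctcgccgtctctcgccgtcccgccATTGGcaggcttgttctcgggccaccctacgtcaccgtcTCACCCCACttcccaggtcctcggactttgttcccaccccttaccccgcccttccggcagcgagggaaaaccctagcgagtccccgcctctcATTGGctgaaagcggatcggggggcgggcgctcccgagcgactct
Srebf2: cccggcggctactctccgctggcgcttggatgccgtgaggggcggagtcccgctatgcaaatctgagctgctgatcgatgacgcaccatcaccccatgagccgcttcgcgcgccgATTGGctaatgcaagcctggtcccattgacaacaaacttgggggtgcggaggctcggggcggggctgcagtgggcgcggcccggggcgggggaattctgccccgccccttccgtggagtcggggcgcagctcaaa
Insig1: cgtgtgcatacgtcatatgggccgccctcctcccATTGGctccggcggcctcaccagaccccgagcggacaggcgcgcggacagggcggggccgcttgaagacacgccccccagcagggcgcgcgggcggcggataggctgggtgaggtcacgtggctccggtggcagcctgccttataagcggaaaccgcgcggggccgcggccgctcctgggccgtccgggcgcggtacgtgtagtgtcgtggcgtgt
Insig2: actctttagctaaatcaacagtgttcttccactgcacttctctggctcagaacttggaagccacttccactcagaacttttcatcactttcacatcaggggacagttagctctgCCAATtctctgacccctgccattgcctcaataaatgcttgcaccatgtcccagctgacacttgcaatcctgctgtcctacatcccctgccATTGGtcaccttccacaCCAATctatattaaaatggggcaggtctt
The Hmgcs1 match TCACCCCAC begins 137 bases before the start and lies between CCAAT boxes at 176 and 45 bases. Abca1 holds no CCAAT box in this window and 2 GC boxes, Srebf2 and Insig1 hold 1 CCAAT box each, and this start of Insig2 holds 3, while its other 2 starts hold 0. A match is a description of the letters and not a measured site of binding.

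**Figure D1:**
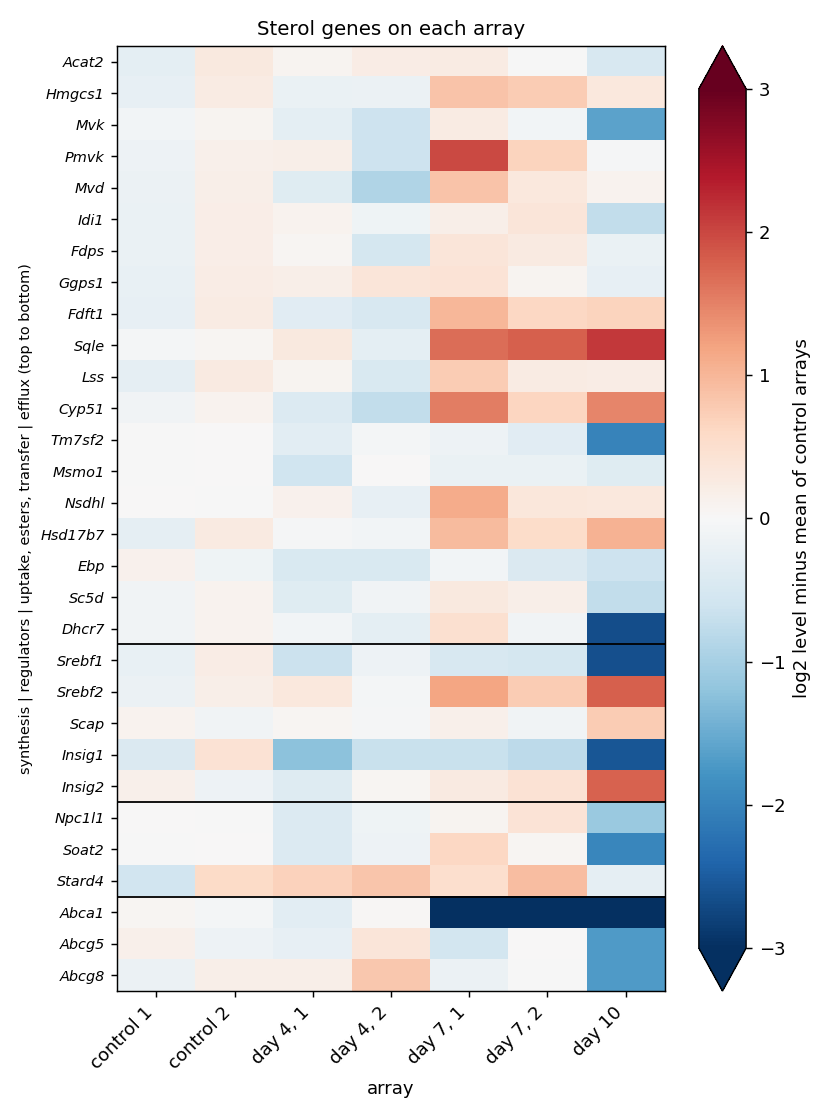
Level of each of the 30 sterol genes on each of the 7 arrays, drawn as the difference from the mean of the 2 control arrays (log2, colour limited to 3 in either direction). Abca1 is low on both day 7 arrays and on the day 10 array, and the day 10 column holds both high genes (Sqle, Srebf2, Insig2) and low ones (Dhcr7, Srebf1, Insig1).

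At day 4 no sterol gene was called against the controls. Over all features 8 of 24763 were called, or 0.0323%. Without adjustment 1 of the 30 genes, or 3.33%, had a limma p under 0.05, against 6.18% of all features, and this was Insig1, whose product holds SCAP in the endoplasmic reticulum. Insig1 was at 1.12 and 1.98 in the controls and at 0.33 and 0.89 at day 4, a difference of -0.94 ± 0.35 (SE, adjusted p = 0.756). The 30 differences ran from -0.94 to 0.76 with a median of -0.19, beside -0.07 over all features. The highest was that of Stard4, a carrier that moves cholesterol between membranes, at 0.76 ± 0.41 (adjusted p = 0.903), with controls at 2.69 and 3.85 and day 4 at 3.95 and 4.11.

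At day 7 Abca1 fell and Sqle rose, and no other sterol gene passed the test. ABCA1 hands cholesterol to apolipoprotein A-I across the basolateral membrane of enterocytes. Abca1 was at 1.71 and 1.62 on the control arrays, at 1.35 and 1.70 at day 4, at -3.45 and -3.0 at day 7 and at -1.39 at day 10. Control and day 4 overlapped, and both day 7 arrays and the day 10 array lay far below them. From 1.67 ± 0.07 (SD, n = 2) in the controls to -3.23 ± 0.32 (n = 2) at day 7, the difference was -4.89 ± 0.26 (SE, adjusted p = 0.00125), a signal 29.7-fold lower. It was the 26th lowest of the 24763 differences and the 21st lowest among genes with a symbol. Abca1 had 1 probe. The lowest signals well above background on the day 7 arrays were -3.90 and -4.52, so the size of a fall to near this level is uncertain. With a background correction by normexp on the median signal, which adds an offset, the Abca1 difference was -2.91 and stayed called.

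The other efflux genes, Abcg5 and Abcg8, encode the partner proteins of a transporter that returns sterols to the gut lumen. They did not pass the test at day 7. Abcg5 was at 6.72 and 6.44 in the controls and at 6.04 and 6.58 at day 7, a difference of -0.27 ± 0.32 (adjusted p = 0.661). Abcg8 was at 0.20 and 0.54 in the controls and at 0.19 and 0.35 at day 7, a difference of -0.10 ± 0.29 (adjusted p = 0.872). In both genes the control and day 7 arrays overlapped.

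Sqle encodes squalene epoxidase, which adds the oxygen that starts ring formation. Sqle was at 3.68 and 3.82 in the controls, at 4.05 and 3.46 at day 4, at 5.44 and 5.54 at day 7 and at 5.87 at day 10. The day 7 and day 10 arrays were all above the control and day 4 arrays. From 3.75 ± 0.09 (SD, n = 2) to 5.49 ± 0.07 (n = 2), Sqle rose at day 7 by 1.74 ± 0.26 (SE, adjusted p = 0.017), or 3.33-fold. The call was lost when any of 3 of these 4 arrays was left out: the adjusted p was 0.095 without control replicate 1, 0.0598 without control replicate 2 and 0.0659 without day 7 replicate 1, with differences from 1.67 to 1.80. Among all features 3.04% were called higher and 4.32% lower at day 7, and 1 higher and 1 lower among the 30 sterol genes is 3.33% in each direction, a share near that background.

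**Figure D2:**
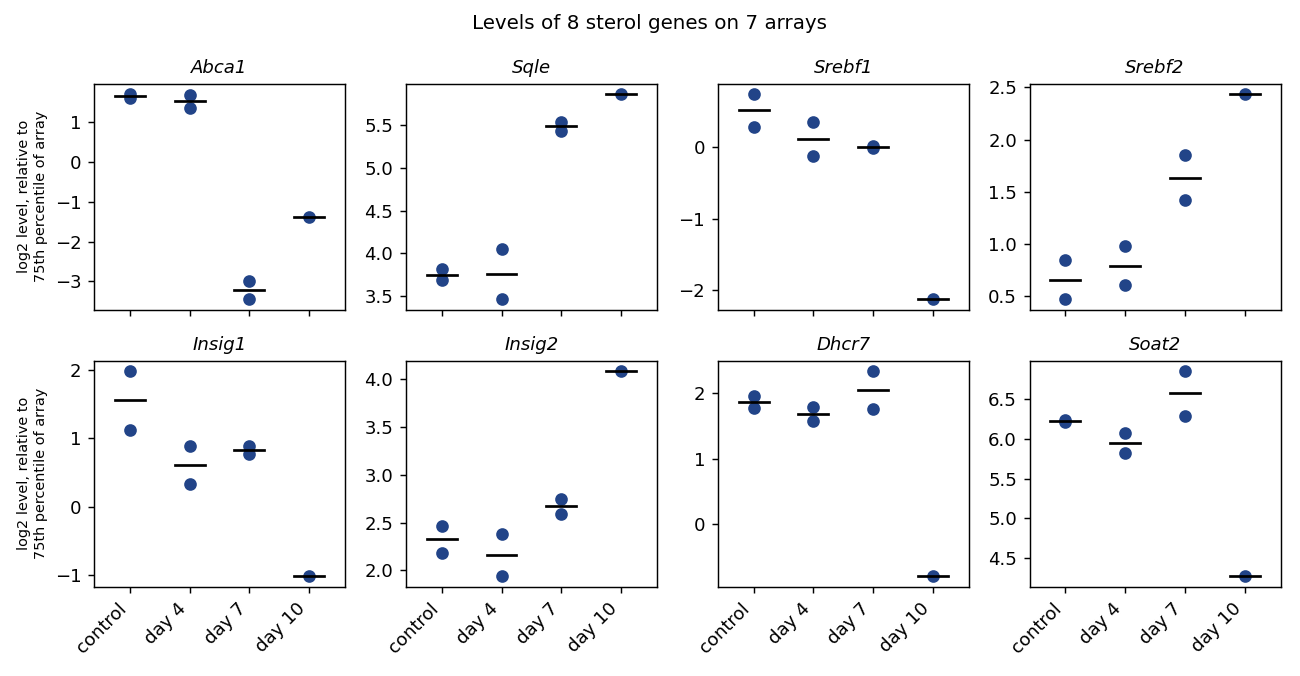
Level (log2, relative to the 75th percentile of the array) of 8 sterol genes on each array, with points for arrays and bars for group means over 2 arrays (1 at day 10). Abca1 drops at day 7 and lies at -1.39 at day 10, Sqle is above 5.4 on all day 7 and day 10 arrays, and Srebf1, Insig1, Dhcr7 and Soat2 have their lowest value on the day 10 array.

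The synthesis enzymes as a group lay slightly above the controls at day 7, mostly without passing the test. Of the 19, 16 had a difference above 0 and the median was 0.31, beside -0.06 over all features, whereas at day 4 it was 3 of 19 with a median of -0.19. In 10 of the 19 both day 7 arrays lay above both control arrays, or 52.6% against 22.9% of all features. These were Hmgcs1, Pmvk, Mvd, Fdps, Fdft1, Sqle, Cyp51, Nsdhl, Hsd17b7 and Sc5d. Over all 30 sterol genes it was 14, or 46.7%. Against day 4 the separation was wider, with both day 7 arrays above both day 4 arrays in 14 of the 19 enzymes, or 73.7% against 24.6% of all features, and a median difference of 0.55, beside -3e-04 over all features.

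Among the enzymes of the mevalonate steps, Hmgcs1, which builds hydroxymethylglutaryl-CoA, was at 5.08 and 5.58 in the controls, at 5.14 and 5.15 at day 4 and at 6.20 and 6.10 at day 7. Its day 7 arrays lay above the rest, and its difference from control was 0.82 ± 0.25 (adjusted p = 0.114). Pmvk, the phosphomevalonate kinase, was at 4.05 and 4.37 in the controls and at 6.20 and 4.88 at day 7, a difference of 1.33 ± 0.49 (adjusted p = 0.178) that was uneven between the 2 arrays. Mvd, which decarboxylates mevalonate diphosphate, had a difference of 0.58 ± 0.31 (adjusted p = 0.335). Acat2, the thiolase of the first step, which may share signal with its close relative Acat3, had one of 0.11 ± 0.28 (adjusted p = 0.844) and Mvk, the mevalonate kinase, one of 0.08 ± 0.24 (adjusted p = 0.87).

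The isoprenoid enzymes Idi1, Fdps and Ggps1, which isomerise and join the isoprenoid units, differed from control by 0.25 to 0.31 at day 7, with none called. Fdft1, the squalene synthase, was at 1.97 and 2.46 in the controls, at 1.87 and 1.73 at day 4, at 3.20 and 2.84 at day 7 and at 2.88 at day 10. Its day 7 and day 10 arrays lay above all earlier ones, with a day 7 difference of 0.81 ± 0.27 (adjusted p = 0.142). Lss, which closes the ring to form lanosterol, had a difference of 0.51 ± 0.33 (adjusted p = 0.421).

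In the steps after lanosterol, Cyp51, the lanosterol demethylase, was at -0.06 and 0.16 in the controls, at -0.36 and -0.69 at day 4, at 1.59 and 0.70 at day 7 and at 1.52 at day 10. The day 7 difference was 1.09 ± 0.34 (adjusted p = 0.126), and it was called only when day 7 replicate 2 was left out (1.54, adjusted p = 0.0413). Nsdhl and Hsd17b7, which help to remove the methyl groups at the fourth carbon, each had a difference of 0.74, with adjusted p of 0.237 and 0.182. Their second probes gave 1.47 and 1.37 (adjusted p = 0.238 and 0.160), larger than the representing probes and likewise not called. Msmo1, Ebp and Tm7sf2 were the 3 enzymes below 0 at day 7, with differences from -0.25 to -0.19, and Sc5d and Dhcr7 were at 0.24 and 0.18.

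Of the regulators, Srebf2, which encodes the SREBP most tied to sterol synthesis, was at 0.47 and 0.84 in the controls, at 0.98 and 0.60 at day 4, at 1.85 and 1.42 at day 7 and at 2.44 at day 10. Both day 7 arrays lay above all control and day 4 arrays, and the difference from control of 0.98 ± 0.28 did not pass the test (adjusted p = 0.0991). A second Srebf2 probe also gave 0.98. Srebf1 had a difference of -0.51 ± 0.27 (adjusted p = 0.337), Insig1 of -0.72 ± 0.35 (adjusted p = 0.294), Insig2 of 0.35 ± 0.25 (adjusted p = 0.471) and Scap of 0.03 ± 0.22 (adjusted p = 0.957). Npc1l1, which takes up cholesterol at the brush border, Soat2, which esterifies it, and Stard4 were not called either, with differences of 0.25, 0.35 and 0.72. A second Stard4 probe, tested as a feature of its own, gave 1.00 ± 0.24 (limma, adjusted p = 0.0597).

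Set against day 4, day 7 gave the same pair of calls. Sqle was higher by 1.73 ± 0.26 (SE, adjusted p = 0.0337) and Abca1 lower, at -4.75 ± 0.26 (adjusted p = 0.00397), or 26.9-fold. Over all features 1.28% were called higher and 1.52% lower. The Sqle call was lost when any of the 6 control, day 4 and day 7 arrays was left out (adjusted p from 0.0627 to 0.198), without the filter on dim probes (0.0871) and with only the groups compared (0.0627), and the Abca1 call when day 4 replicate 2 was left out (adjusted p = 0.0683). Next to the threshold were Cyp51 at 1.67 ± 0.34 (adjusted p = 0.0678) and Fdft1 at 1.23 ± 0.27 (adjusted p = 0.0785).

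**Figure D3:**
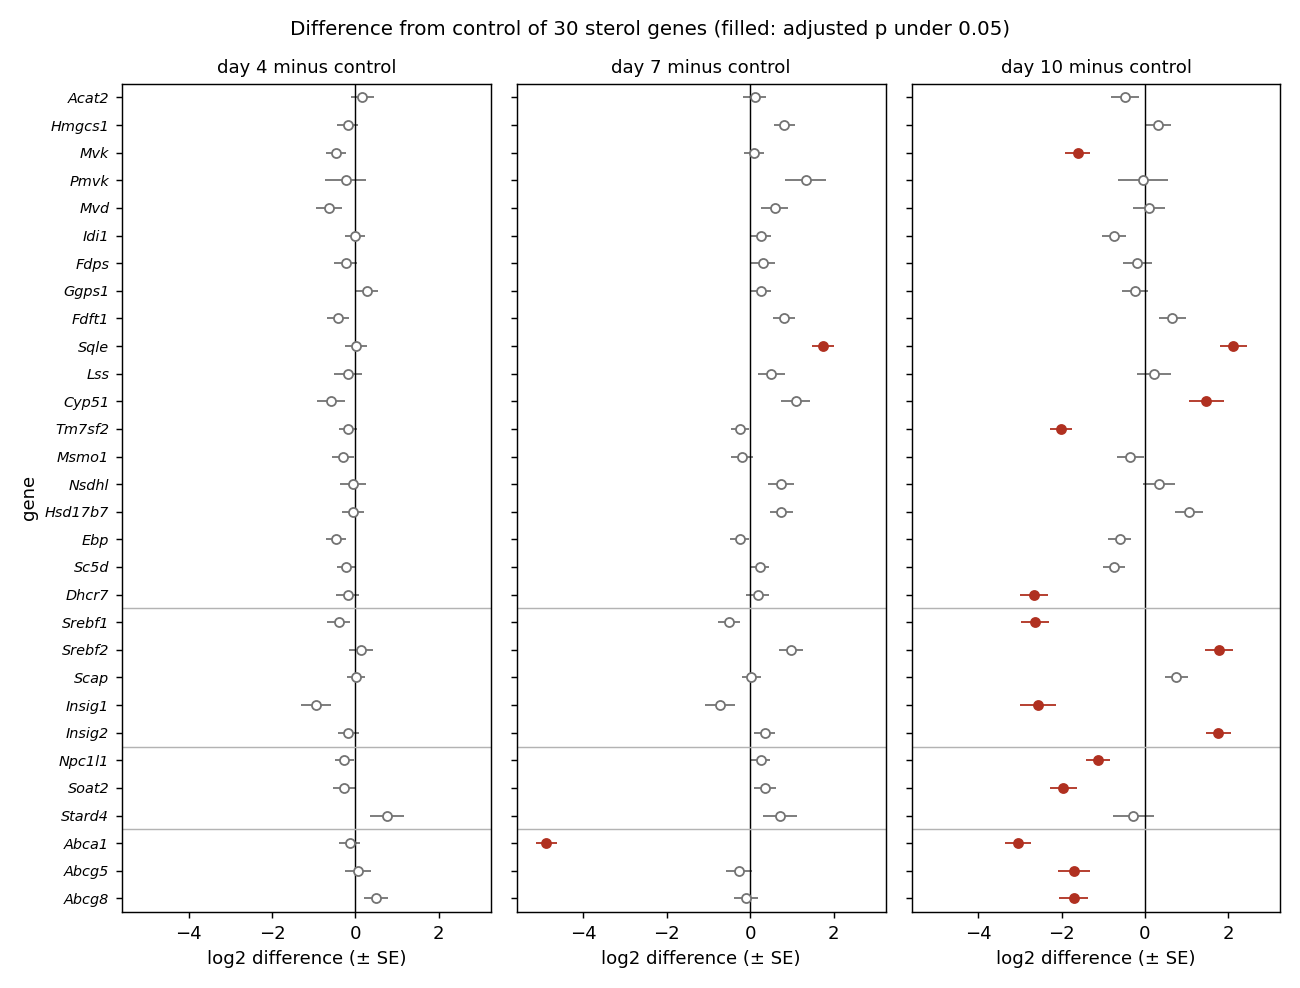
Difference of each of the 30 sterol genes from control (log2, point with standard error) at day 4, day 7 and day 10, with filled red points for an adjusted p under 0.05 over all features. No gene is red at day 4, Sqle and Abca1 are red at day 7, and 14 genes are red on either side of 0 at day 10.

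On the day 10 array 4 of the 30 sterol genes were called higher than control and 10 lower. Among all features 10.7% were called higher and 17.5% lower. The 4 higher genes were Sqle, Cyp51, Srebf2 and Insig2, and the 10 lower ones were Mvk, Tm7sf2, Dhcr7, Srebf1, Insig1, Npc1l1, Soat2, Abca1, Abcg5 and Abcg8. The 4 and 10 are 13.3% and 33.3% of the list. All day 10 values come from 1 array. The median of the 30 differences was -0.32, beside -0.13 over all features.

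Cell type markers changed over the same days. The summed linear level of 14 absorptive enterocyte markers was 3814 and 3972 in the controls, 2758 and 3380 at day 7 and 544.4 at day 10, and 13 of the 14 were called lower at day 10. The 9 general epithelial markers summed to between 1288 and 1773 on all 7 arrays, with 3 of the 9 called higher and 2 lower at day 10. Vil1, whose promoter drives the Cre, was at 8.46 and 8.36 in the controls and at 7.01 at day 10, and Krt18 was at 7.29 and 7.18 and at 8.97. The 9 T cell markers summed to between 190.0 and 343 until day 7 and to 10.9 at day 10, with 8 of 9 called lower. The 7 myeloid markers with a probe summed to between 28.0 and 60.1 until day 7 and to 324 at day 10, with 4 of 6 tested called higher. All 7 were well above background on the day 10 array. S100a9 was the highest there (7.44, controls -5.89 and -6.31), and S100a8 was at 5.93 (controls -6.10 and -6.40). Csf1r and Cd14 were at 4.00 and 3.15, above their controls, whereas Lyz2 was at -0.93, below its controls (-0.82 and 0.64). Goblet cell markers summed to 2449 and 2602 in the controls, 591.6 and 1060 at day 7 and 97.32 at day 10. Fibroblast markers summed to between 0.30 and 0.71 on all 7 arrays, with 4 of 7 above background on no array. In bulk RNA fewer cells of a type and less RNA per cell cannot be told apart, and the part of these shifts in the sterol results was not tested.

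**Figure D4:**
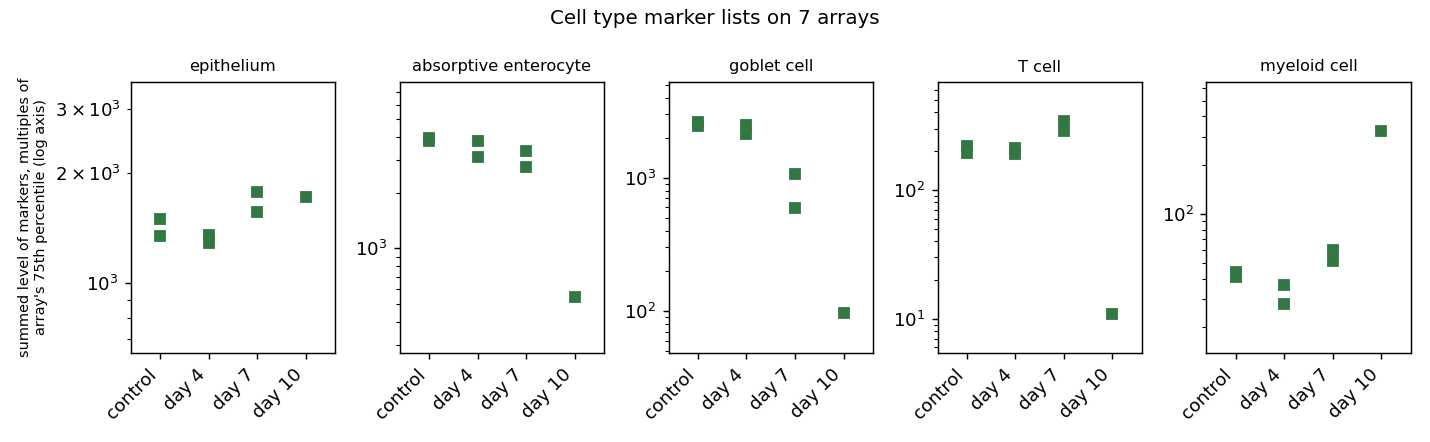
Summed linear level of 5 marker lists on each array, on a logarithmic axis. The absorptive enterocyte, goblet and T cell sums are lowest on the day 10 array, the myeloid sum is highest there, and the general epithelial sum stays between 1288 and 1773.

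The pair of SREBP genes went opposite ways at day 10. Srebf1, whose main intestinal product controls fatty acid genes, was at 0.28 and 0.74 in the controls, at 0.02 and -0.01 at day 7 and at -2.13 at day 10. It fell by 2.64 ± 0.33 on the log2 scale (SE, adjusted p = 0.00275), or 6.23-fold. Srebf2 rose by 1.78 ± 0.34 (adjusted p = 0.0118), or 3.44-fold, and its second probe gave 2.04. The day 10 array was the lowest of the 7 for Srebf1 and the highest for Srebf2.

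The INSIG pair also went opposite ways. Insig1 was at 1.12 and 1.98 in the controls, at 0.89 and 0.77 at day 7 and at -1.02 at day 10, and fell by 2.57 ± 0.43 (adjusted p = 0.00759), or 5.93-fold. Insig2, the paralog whose product has the same retaining role, was at 2.47 and 2.18 in the controls, at 2.59 and 2.75 at day 7 and at 4.09 at day 10. Insig2 rose by 1.76 ± 0.31 (adjusted p = 0.00869), or 3.39-fold, and its second probe gave 1.61. Scap was at 4.57 on the day 10 array, above the 3.71 to 3.97 of the other 6, a difference of 0.76 ± 0.27 that was not called (adjusted p = 0.087).

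Among the synthesis enzymes 2 rose and 3 fell at day 10, or 10.5% and 15.8%, shares near those of all features (10.7% and 17.5%), and the median of the 19 differences was -0.19. Sqle rose by 2.12 ± 0.32 (adjusted p = 0.00531), or 4.34-fold, and Cyp51 by 1.47 ± 0.42 (adjusted p = 0.0452), or 2.76-fold. The Cyp51 call was lost without control replicate 1 (adjusted p = 0.139), control replicate 2 (0.0872) or either day 4 array (0.0807), whereas the Sqle call held under all 17 alternatives tried. Dhcr7, the reductase of the last step to cholesterol, was at 1.77 and 1.96 in the controls, at 1.78 and 1.58 at day 4, at 2.34 and 1.75 at day 7 and at -0.80 at day 10. The first 6 arrays lay close together and the day 10 array far below, a fall of 2.67 ± 0.33 (adjusted p = 0.0026), or 6.34-fold. Tm7sf2, a sterol reductase acting just after Cyp51, fell by 2.01 ± 0.27 (adjusted p = 0.00321), from 3.84 and 3.87 in the controls to 1.84, and its second probe gave -1.94.

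Mvk was at 4.52 and 4.67 in the controls and at 2.98 at day 10, and fell by 1.61 ± 0.29 (adjusted p = 0.010), or 3.06-fold. Its second probe, tested as a feature of its own, gave -1.16 and was not called (adjusted p = 0.078), and with normexp the difference was -0.76 (adjusted p = 0.346). The other 14 synthesis enzymes were not called at day 10. Their differences ran from -0.74, for Idi1 (adjusted p = 0.116) and Sc5d (adjusted p = 0.0907), to 1.05 ± 0.34 for Hsd17b7 (adjusted p = 0.0637). Hmgcs1 was at 5.66, a difference of 0.32 ± 0.30 (adjusted p = 0.468).

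The absorptive and efflux genes were lower at day 10. Npc1l1 was at 5.50 and 5.46 in the controls, at 5.56 and 5.89 at day 7 and at 4.35 at day 10, and fell by 1.12 ± 0.28 (adjusted p = 0.0309), or 2.18-fold. This call was lost without control replicate 1 (adjusted p = 0.106), control replicate 2 (0.0878) or either day 4 array (0.0541). Soat2 was at 6.22 and 6.23 in the controls, at 6.86 and 6.29 at day 7 and at 4.27 at day 10, and fell by 1.96 ± 0.32 (adjusted p = 0.00709), or 3.88-fold. Stard4 was not called, with a difference of -0.28 ± 0.50 (adjusted p = 0.712). Levels of Npc1l1 and Soat2 at day 7 were not below those of the controls, and their low values belong to the day 10 array. Enterocyte, goblet cell and T cell marker sums were also low on that array, and their part in these values was not tested.

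All 3 efflux genes were called lower at day 10. Abcg5 was at 4.88, against 6.72 and 6.44 in the controls, and fell by 1.70 ± 0.39 (adjusted p = 0.0216), or 3.24-fold. Abcg8 was at -1.34, against 0.20 and 0.54, and fell by 1.71 ± 0.35 (adjusted p = 0.0152), or 3.26-fold. Without control replicate 1 the adjusted p of Abcg5 was 0.0793, and without control replicate 2 that of Abcg8 was 0.0563, while normexp gave Abcg8 a difference of -0.83 (adjusted p = 0.252). Abca1 fell by 3.05 ± 0.31 (adjusted p = 0.00132), or 8.29-fold.

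Day 10 against day 7, within 1 slide row, gave 2 sterol genes called higher and 8 lower, while 7.25% of all features were called higher and 11% lower. The 2 and 8 are 6.67% and 26.7% of the list, so the higher share is near background. Both comparisons with control share the control arrays, so the day 10 and day 7 values were also set against each other directly. Insig2 was higher by 1.42 ± 0.31 (adjusted p = 0.0268) and Abca1 by 1.84 ± 0.31 (adjusted p = 0.0119), so that Abca1 was less low at day 10 than at day 7. The Abca1 difference was 0.75 with normexp (adjusted p = 0.148). The genes lower at day 10 were Dhcr7 (-2.84 ± 0.33, adjusted p = 0.00335), Soat2 (-2.30 ± 0.32, adjusted p = 0.00623), Srebf1 (-2.13 ± 0.33, adjusted p = 0.00892), Insig1 (-1.84 ± 0.43, adjusted p = 0.0342), Tm7sf2 (-1.76 ± 0.27, adjusted p = 0.00795), Mvk (-1.70 ± 0.29, adjusted p = 0.0125), Abcg8 (-1.61 ± 0.35, adjusted p = 0.0268) and Npc1l1 (-1.38 ± 0.28, adjusted p = 0.0227). Sqle, Cyp51 and Srebf2 did not pass the test between these days, with differences of 0.38, 0.37 and 0.80. Leaving out a day 7 array ended the calls of Insig1 (adjusted p = 0.0903 and 0.0801), Insig2 (0.0684 and 0.055) and Abcg8 (0.0574 and 0.0746), and leaving out day 7 replicate 2 that of Npc1l1 (0.0564). That of Insig1 was also lost without either day 4 array (0.0581).

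Genes around the list were read from 4 further lists. Among 20 other genes of the sterol pathway, 0 were called at day 7 and 2 were higher and 5 lower at day 10, with medians of -0.11 and -0.21. At day 10 this is 10% higher and 25% lower, against 10.7% and 17.5% of all features, so the higher share is at background. Among the genes with the smallest limma p at day 7 in this list were Pdss1, Fdxr and Acat1, mitochondrial enzymes of ubiquinone, steroid and acetoacetyl-CoA metabolism, with differences from -0.97 to -0.72 (adjusted p from 0.103 to 0.114) and from -2.04 to -1.17 at day 10, where these 3 were called lower. The day 10 call of Fdxr was lost without control replicate 1 (adjusted p = 0.0876) or 2 (0.0512).

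Of the SREBP-linked genes of fatty acid synthesis, 14 of 17 were measured, and 1 was higher and 1 lower at day 7, or 7.14% each way against 3.04% and 4.32% of all features, a count of 1 gene in each direction. Elovl5, an elongase of polyunsaturated fatty acids, rose by 1.57 ± 0.28 (adjusted p = 0.0258), or 2.96-fold, and Acacb, the mitochondrial acetyl-CoA carboxylase, fell by 1.95 ± 0.25 (adjusted p = 0.010). At day 10, 1 of the 14 was called higher and 3 lower, or 7.14% and 21.4% against 10.7% and 17.5% of all features. These shares are near that background. At day 10 Elovl5 was at a difference of 1.77 ± 0.34 (adjusted p = 0.0119) and Acacb at 0.37 ± 0.30 (adjusted p = 0.406). Scd2, a desaturase, and Lpin1, a phosphatidate phosphatase, were not called at day 7, with 2.27 ± 0.80 and -0.77 ± 0.30.

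Of 10 LXR-linked genes, 2 were called lower at day 7, and 2 higher and 4 lower at day 10. The shares are 20% lower at day 7, against 4.32% of all features, and 20% higher and 40% lower at day 10, against 10.7% and 17.5%. Nr1h3, which encodes the receptor LXR-alpha, was at 4.64 and 4.74 in the controls, at 4.08 and 4.43 at day 4, at 3.10 and 3.41 at day 7 and at -0.36 at day 10. It fell by 1.43 ± 0.24 at day 7 (adjusted p = 0.022), or 2.70-fold, and by 5.05 ± 0.30 at day 10 (adjusted p = 0.000259). Abca1, which LXRs activate, and Nr1h3 were both lower at day 7, and on the day 10 array Nr1h3 was below its day 7 values while Abca1 was above them. A link between Abca1 and Nr1h3 was not tested. In the same list Nr1h2, Abcg1, Mylip and Lpcat3 were not called at day 7, with differences of 0.15, -0.38, -0.47 and -0.11. At day 10 Nr1h2 was called lower, close to the threshold (-0.91 ± 0.27, adjusted p = 0.0492), and Abcg1, Mylip and Lpcat3 were not called. How the Nr1h2 call fares under the alternatives is not given here. Nr0b2, a receptor-like repressor of bile acid synthesis, was not well above background on any day 7 or day 10 array and was at least 5.18-fold lower at day 7 (adjusted p = 0.0314). With normexp its difference was -0.88 and was not called (adjusted p = 0.0995). Such a bound compares the mean of the bright group with the lowest signal that was well above background on each dim array, or with the own signal of that gene on the array where that is higher. Rxra, the partner receptor of LXRs, was at -0.61 ± 0.22 at day 7 (adjusted p = 0.175) and fell by 2.77 ± 0.27 at day 10 (adjusted p = 0.00114), while Smpdl3a, a phosphodiesterase related to acid sphingomyelinase, was at 1.02 ± 0.24 at day 7 (adjusted p = 0.0606) and rose by 1.65 ± 0.30 at day 10 (adjusted p = 0.00952).

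Of the genes of intracellular sterol trafficking, 14 of 17 were measured, with 1 higher and 3 lower at day 7 and 2 higher and 5 lower at day 10. The shares are 7.14% and 21.4% at day 7, against 3.04% and 4.32% of all features, and 14.3% and 35.7% at day 10, against 10.7% and 17.5%. Npc1, which releases cholesterol from lysosomes, rose by 1.11 ± 0.24 at day 7 (adjusted p = 0.0474) and by 2.57 ± 0.29 at day 10 (adjusted p = 0.00189), or 5.95-fold. The day 7 call of Npc1 was lost under 11 of 17 alternatives, among them the replicate block (adjusted p = 0.0514), median scaling (0.0606), normexp (0.109), no filter on dim probes (0.111) and only the groups compared (0.104). Scarb1, a lipoprotein receptor, fell by 2.48 ± 0.40 at day 7 (adjusted p = 0.0194), or 5.56-fold, and Osbpl1a, an oxysterol-binding protein, by 2.65 ± 0.41 (adjusted p = 0.0177), or 6.26-fold. Cyp27a1, the sterol 27-hydroxylase, fell by 1.82 ± 0.39 at day 7 (adjusted p = 0.0458). On the day 10 array Cyp27a1 was not well above background and lay at least 25.4-fold lower (adjusted p = 0.000845).

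These 8 day 7 calls outside the list depended on single arrays and, for 6 of them, on the filter. All 8, Acacb, Elovl5, Nr1h3, Nr0b2, Osbpl1a, Scarb1, Cyp27a1 and Npc1, were lost without control replicate 1 (adjusted p from 0.0525 to 0.199), and all but Acacb also without control replicate 2 (0.0676 to 0.176) or without day 7 replicate 1 (0.0803 to 0.183). Those of Cyp27a1 and Npc1 were further lost without day 7 replicate 2 (0.0622 and 0.0706), and that of Npc1 without either day 4 array (0.104). Without the filter on dim probes the calls of Elovl5 (0.0661), Nr1h3 (0.0578), Nr0b2 (0.0777), Scarb1 (0.0518), Cyp27a1 (0.108) and Npc1 (0.111) were lost, and that of Cyp27a1 also with the percentile over detected probes (0.0588). The Abca1 call at day 7 was kept in each of these fits, with an adjusted p of at most 0.0127 over all 17 alternatives.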

How the data were processed

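The authors deposited scanner output of 7 Agilent 1-colour arrays. The intensity values used, gProcessedSignal, are background-subtracted and unscaled between arrays, per the file headers (Feature Extraction 11.5.1.1, array design 028005, build label mm9). The value table deposited for the series held these same intensities. The files gave no gene names, so accessions were matched to RefSeq symbols (GRCm38.p6). Of 55681 probes, 27509 had 1 symbol, 0 had several and 28172 had none.

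Outlier spots (115 to 274 per array) and control spots were left out. Values were log2 intensity minus the 75th percentile of the array. Probes well above background on fewer than 2 of 7 arrays were dropped, the brightest probe stood for a gene, and 24763 features remained. limma 3.58.1 (R 4.3.3, package data.table, version 1.17.8) fitted 1 mean per group over 7 arrays (3 residual and 3.146 prior degrees of freedom), and the step was tested on simulated data. The 75th percentile signal was 278 to 339, and 470 on the day 10 array, with 45.2% to 51.3% of probes well above background. The number of arrays limits the precision.

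The members, lists, tests and alternatives were chosen with earlier results of these data known. Named genes were the 30 members, Mob1a and Mob1b, and the 4 genes with the smallest day 7 p of each further list, of which 1 is not reported here. The 6 genes under other observations, the named myeloid markers and Nr1h2, Abcg1, Mylip and Lpcat3 fall outside this rule. They were chosen after their values were seen. Alternatives were the scaling, background correction, filter, probe rule, deposited table, groups in the fit, a replicate block and leaving out each array.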

Additional observations from a re-analysis of the deposited data

Results flagged for a closer look

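Knockout arrays of different days differed in 12 measures of sterol genes (limma, tested directly between the days and adjusted over all features). Between day 7 and day 4, Sqle differed by 1.73 and Abca1 by -4.75 on the log2 scale, a comparison in which day and slide row cannot be told apart. Between day 10 and day 7, Abca1 differed by 1.84 and Insig2 by 1.42, while Dhcr7 differed by -2.84, Soat2 by -2.30, Srebf1 by -2.13, Insig1 by -1.84, Tm7sf2 by -1.76, Mvk by -1.70, Abcg8 by -1.61 and Npc1l1 by -1.38. The day 10 group is 1 array, and its marker sums for enterocytes, T cells and myeloid cells stood apart as described, so the part of the sample's makeup was not tested.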

How the results depend on the processing

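Across 2550 comparisons of a member's difference with its value under an alternative, 2478 kept the side of the threshold, 54 lost a call and 18 gained one, and no called difference changed sign. Members called numbered 0 at day 4 under all alternatives run. At day 7 there were 2, and 1 to 3 when an array was left out. Day 7 against day 4 gave 2 in the main setting, 1 without the filter on dim probes, 4 with probes well above background on all 7 arrays, 1 with only the groups compared, and 0 to 2 when an array was left out. Day 10 against control gave 14 (11 to 15 under alternatives), and day 10 against day 7 gave 10, or 4 with only the groups compared and 6 to 10 when an array was left out. The split at day 10 was 4 higher and 10 lower, against 6 and 9 with the percentile over detected probes, 6 and 8 with quantile normalization, and 3 and 10 with median scaling. The median of all features at day 10 was -0.13, and -0.33 with median scaling or 0.08 with the percentile over detected probes. Calls over all features at day 7 fell from 1824 to 967 without the filter and 1052 with only the groups compared, and to 535 without control replicate 1. For day 7 against day 4 they fell from 695 to 123 without the filter, 436 with normexp and 413 with only the groups compared, and ran from 0 to 1100 when an array was left out; for day 10 against day 7 they fell from 4515 to 2384 with only the groups compared. At day 10 they fell from 6995 to 4613 without control replicate 1. At day 4 they numbered 1 to 27 over all alternatives, against 8.

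The labels number replicates in each group, but same-numbered samples did not deviate together in all pairs (correlations 0.01, 0.09 and 0.25), so the numbers were not taken to pair mice. With the replicate block, 0 members were called at day 4, 2 at day 7, 12 at day 10, 2 for day 7 against day 4 and 10 for day 10 against day 7. Normexp on mean signal was not run, since that column was not in the files used, and normexp on the median signal was added after the data were seen. Normexp lowers differences of dim probes by its offset of 50. The Mvk probe was not dim, at 2.98 to 4.84 over the 7 arrays, and why its calls were lost with normexp was not tested. Further calls ended by a setting other than a left-out array were, at day 10, Cyp51 (adjusted p = 0.105 with median scaling, 0.0825 without the filter, 0.0735 with the block), Npc1l1 (0.0699 with detected probes, 0.0832 with quantiles, 0.0587 without the filter, 0.0546 with the block), Abcg5 (0.0519 with quantiles) and Insig1 (0.0542 with only the groups compared). For day 10 against day 7 they were Mvk (0.125 with normexp, 0.0644 with only the groups compared), Tm7sf2 (0.0544 with only the groups compared), Insig1 (0.0639 without the filter), Insig2 (0.0509 without the filter, 0.0913 with only the groups compared), Npc1l1 (0.107 with only the groups compared), Abcg8 (0.136 with normexp, 0.0509 without the filter, 0.0664 with only the groups compared) and Abca1 (0.059 with only the groups compared). The cause was not tested. The day 10 group has 1 array, and no probe was saturated.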

Other observations

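Further genes of the lists around sterol metabolism, chosen after their values were seen, differed at day 10. Apoe, an apolipoprotein that accepts cholesterol, rose by 2.77 ± 0.28 on the log2 scale (limma, adjusted p = 0.00123), from 1.15 and 0.76 in the controls to 3.73. How the Apoe call fares under the alternatives is not given here. Soat1, the esterifying enzyme found in many cell types including macrophages, was higher by 1.99 ± 0.51 (adjusted p = 0.0328), while its paralog Soat2 was lower as described. The myeloid marker sum, with S100a9 as its highest gene on that array, was 324 against 41.2 and 43.9 in the controls. Its part in these values was not tested. Without control replicate 1 or 2 the Soat1 call was lost. Acss2, which makes acetyl-CoA from acetate, fell by 2.50 ± 0.28 (adjusted p = 0.00174), and the desaturases Fads1 and Fads2 fell by 2.41 ± 0.60 (adjusted p = 0.0296) and 2.22 ± 0.46 (adjusted p = 0.0153). Acss2, Fads1 and Fads2 are the 3 genes called lower of the 14 measured in the fatty acid list. That is 21.4%, against 17.5% of all features. The calls of Fads1 and Fads2 were lost without control replicate 1, and that of Fads1 also without control replicate 2. Mbtps2, a protease that releases SREBPs in the Golgi, rose by 1.45 ± 0.27 (adjusted p = 0.0104), with controls at -2.09 and -2.17 and day 10 at -0.68. With normexp the Mbtps2 difference was 0.80 and was not called (adjusted p = 0.0601). Without the filter on dim probes the calls of Soat1 (0.0615) and Fads1 (0.0559) were lost.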
